A study of Arabidopsis thaliana with 6 samples.

Results

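The nitrate reductase genes NIA1 (AT1G77760) and NIA2 (AT1G37130) and the nitrite reductase gene NIR1 (AT2G15620) were examined in chromatin immunoprecipitation sequencing (ChIP-seq) peak lists of the transcription factor NLP2 from Arabidopsis thaliana. They are 3 of 27444 protein-coding genes on the 5 nuclear chromosomes. They were taken by name for their place in nitrate assimilation, with earlier results of these data known. A peak was counted at one of them when its summit (for the input lists, its midpoint) lay inside the gene or within 5000 bp of either end. The study has 6 libraries. The T30 group, 2 immunoprecipitated (IP) libraries and 1 input library, came from seedlings given 3 mM nitrate for 30 min. The T0 group, also 2 IP libraries and 1 input library, came from seedlings that had a fresh nitrogen-free solution instead. In both groups the seedlings had been grown on nitrate for 10 days and then starved of nitrogen, and their label gives an age of 14 days. Both groups carried the nlp2-2 mutation in Col-0 and an NLP2-GFP fusion driven by the NLP2 promoter, and antibodies to GFP were used for the IP. Whole seedlings were used, so roots and shoots are mixed.

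Nitrate reductase reduces nitrate to nitrite in the cytosol, with electrons from NADH and with FAD, haem and molybdenum cofactor as its redox centres. In Arabidopsis it is encoded by NIA1 and NIA2, and NIA2 is known for most of the activity in seedlings. Nitrite reductase, encoded by NIR1, then reduces nitrite to ammonium in the plastid, with electrons from ferredoxin and with sirohaem as a cofactor. Transcripts of all 3 genes are classic early responses to nitrate. NIN-like proteins such as NLP2 bind nitrate-responsive cis-elements, which were first described in nitrite reductase promoters. An element of this kind has also been described in the 3′ flank of NIA1. No sequence of these regions is printed, and the strand of the genes was not used here.

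The T30 IP list held 593 peaks and the T0 IP list 579, each made by the authors from its 2 libraries together. The T30 input list held 22 peaks and the T0 input list 87. The authors' fold per peak, a ratio over local background, ranks peaks within a list. It ran from 2.01 to 20.9 with a median of 2.75 at T30, and from 1.87 to 10.5 with a median of 2.06 at T0. No value per replicate is given for any peak, so no replicate error can be attached to the values that follow, and read depth is unknown.

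After nitrate, all 3 reductase genes had NLP2 peaks, and without nitrate none of them had one. NIA1 had 4 T30 peaks, NIA2 had 1 and NIR1 had 2, against 0 T0 peaks at each gene. The 7 T30 peaks had folds of 2.67 to 20.9 with a median of 5.27. Over all protein-coding genes, 5.41% had a T30 summit in the same window and 3.76% had a T0 summit. With 3 members and these background shares, the lack of T0 peaks at the 3 genes does not set them apart from other genes. A T30 peak at all 3 is above the T30 share. However, the genes and the window were chosen with earlier results of these data known, so this is a description only. Within 2000 bp, 2 of the genes had a T30 peak, and within 1000 bp, 1 had. The comparison of the times sets 2 separately called lists side by side and carries no test.

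**Figure D1:**
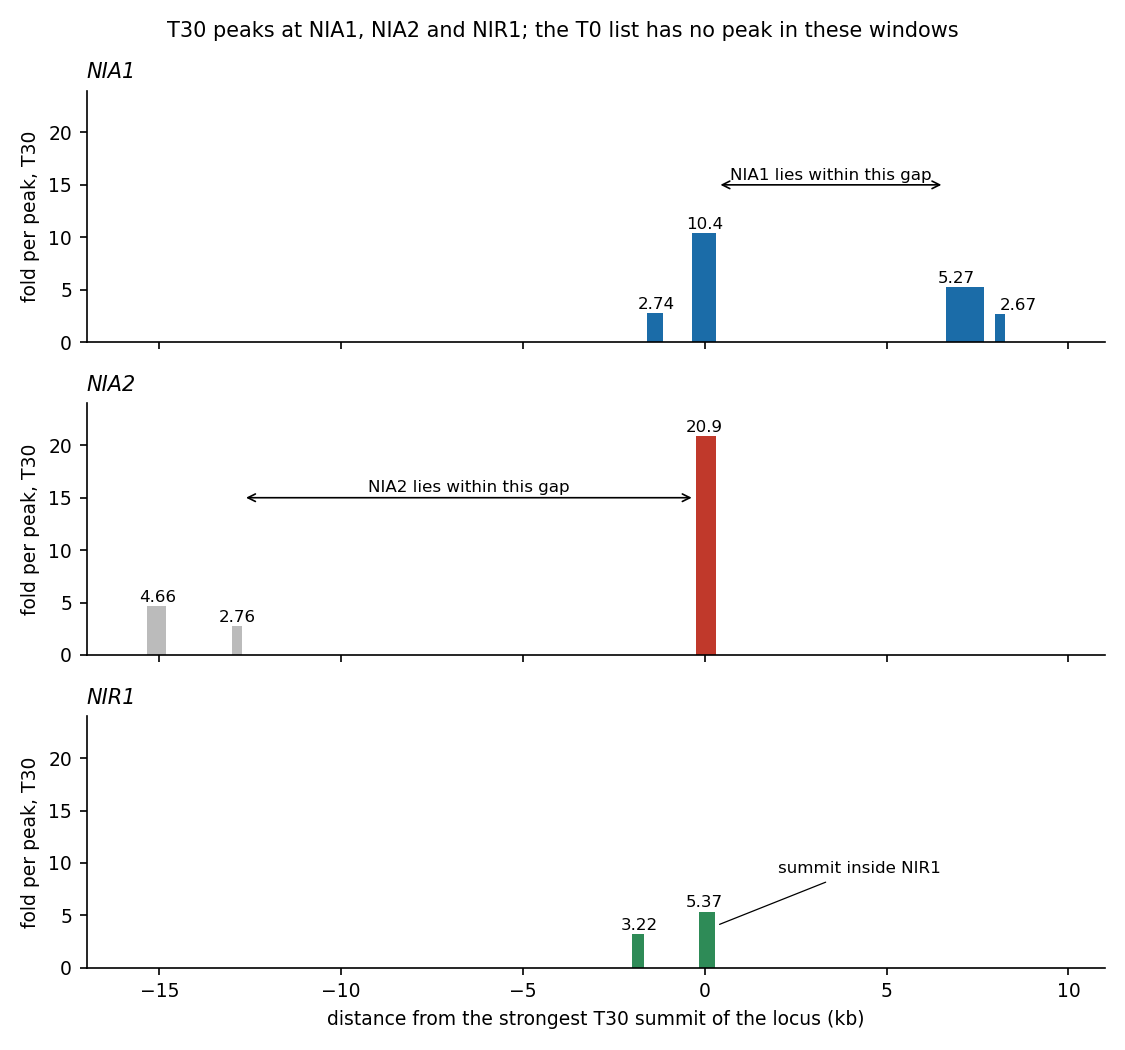
T30 peaks at the 3 genes, drawn as bars that span each peak's width, with height equal to the authors' fold. The horizontal axis is the distance in kb from the strongest T30 summit of the locus, coloured bars are peaks within 5000 bp of the gene, and grey bars are T30 peaks within 5000 to 10000 bp of NIA2. NIA1 lies between its peaks of fold 10.4 and 5.27, the NIA2 peak of fold 20.9 stands to one side of the gene, and the NIR1 peak of fold 5.37 has its summit inside the gene.

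NIA2 had the strongest peak of the whole T30 list. It lay on chromosome 1 from 14165230 to 14165777, with its summit at 14165475, a fold of 20.9 and a −log10 q of 1998. The second highest fold in the list was 13.8, so the NIA2 peak was 1.51 times as high as the next and 7.59 times the list's median. Its width of 548 bp ranked only 174th, and its summit sat near the middle, 245 bp from the start of the peak and 302 bp from its end. The peak did not touch the gene. Its summit lay more than 2000 bp from NIA2 on the side of higher coordinates, in the space before MCT1 (AT1G37140), the next protein-coding gene, which was also within 5000 bp. Across the list, 23.8% of T30 summits lay more than 2000 bp from every protein-coding gene, and those had a median fold of 2.60 against 2.87 for the rest. A distant summit was therefore common at T30, and a high fold was not typical of such summits.

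On the other side of NIA2, 2 further T30 peaks lay beyond 5000 bp but within 10000 bp of the gene. The peak from 14150137 to 14150656 had a fold of 4.66 and ranked 83rd, and the peak from 14152479 to 14152743 had a fold of 2.76 and ranked 293rd. NIA2 was the nearest protein-coding gene to both, although a pseudogene (AT1G37120) and a long non-coding RNA gene (AT1G07013) were the nearest annotated features. Their summits were 15.1 kb and 12.8 kb from the strong NIA2 summit. With a 10000 bp window NIA2 thus had 3 T30 peaks, placed on both sides of the gene. In that window 9.40% of all protein-coding genes had a T30 summit, and the share with 3 or more is not given here.

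NIA2 was also the one reductase gene with T0 peaks in its wider surroundings. Within 100 kb it had 4 T0 peaks, with folds of 1.87 to 2.43, while NIA1 and NIR1 had 0 each. The same window held 4 T30 peaks at NIA2, 5 at NIA1 and 2 at NIR1. The share of all genes with T0 peaks within 100 kb is not given here, so these counts are a description only. The nearest T0 peak to the strong T30 summit of NIA2, from 14181255 to 14183026 with a fold of 2.03, was 16.3 kb away. The T0 peak with the highest fold, 2.43, overlapped a T30 peak of fold 2.68 from 14232811 to 14233353. Gene density also differed between the loci. A window reaching 500 kb to either side of the strong NIA2 summit held the starts of 37 protein-coding genes. The same window held 261 around the strongest NIA1 summit and 174 around that of NIR1. Whether gene density bears on the T0 peaks near NIA2 was not tested.

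NIA1 stood out by the number of its peaks. Its 4 T30 peaks fell as 2 pairs, one on each side of the gene, and each pair held a strong and a weak peak. On the side of lower coordinates, the strong peak from 29233968 to 29234646 had a fold of 10.4 and ranked 9th of 593, with its summit at 29234330. Its weak partner from 29232738 to 29233183 had a fold of 2.74 and ranked 303rd. Their summits were 1335 bp apart, and the strong peak had 3.80 times the fold of the weak one.

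On the side of higher coordinates, the strong NIA1 peak from 29240952 to 29242018 had a fold of 5.27 and ranked 62nd. Its weak partner from 29242310 to 29242596 had a fold of 2.67 and ranked 331st, with a summit 1198 bp away and only 291 bp between the peaks. In this pair the fold ratio was 1.98. Between the pairs, the inner summits were 6916 bp apart with the whole gene between them, and the lower-coordinate one had 1.97 times the fold of the other. In both pairs the strong peak was the one closer to the gene, with its summit between 1000 and 2000 bp from it, and the weak one was between 2000 and 5000 bp away. With the gene table moved down by 250 bp, to allow for assembly differences, the strong higher-coordinate summit fell 2000 to 5000 bp away.

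The peaks of NIA1 also differed in shape. The strong peak on the higher-coordinate side was the widest of the 7 at 1067 bp and ranked 38th in the list, where the median width was 435 bp. Its summit was off centre, 294 bp from the start of the peak and 772 bp from its end. The strong peak on the other side was 679 bp wide with a nearly central summit, 362 bp from its start and 316 bp from its end. The weak outer peak at 29242310 was the narrowest of the 7 at 287 bp.

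Not all 4 peaks lay nearest to NIA1. The weak peak on the lower-coordinate side was nearer to AT1G77750, the protein-coding neighbour on that side, and the weak peak on the other side was nearer to AT1G77765. AT1G09955, annotated as a miscellaneous RNA, was the nearest feature of any kind to both peaks on the higher-coordinate side, within 1000 bp of the weak summit and between 1000 and 2000 bp from the strong one. The strong peak of each pair had NIA1 as its nearest protein-coding gene. With each summit given only to its nearest gene, NIA1 therefore kept 2 peaks, 1 on each side.

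Such a number of peaks was rare among protein-coding genes. Of 27444 protein-coding genes, 1363 had 1 T30 summit within 5000 bp, 111 had 2, 8 had 3 and 3 had 4, and no gene had more. The share of genes with 4 or more summits was 0.0109%, and that with 2 or more, which also takes in NIR1, was 0.445%. The other 2 genes with 4 summits, named after their values were seen, were AT1G21000 on chromosome 1 and AT3G07350 on chromosome 3. Their highest folds were 7.10 and 6.55, below the 10.4 of NIA1. NIA2, with the highest fold, was among the genes with a single summit. A count per gene does not show every cluster of summits. On chromosome 5, a run of 8 T30 summits from 12851447 to 12868774 had a top fold of 11.6.

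**Figure D2:**
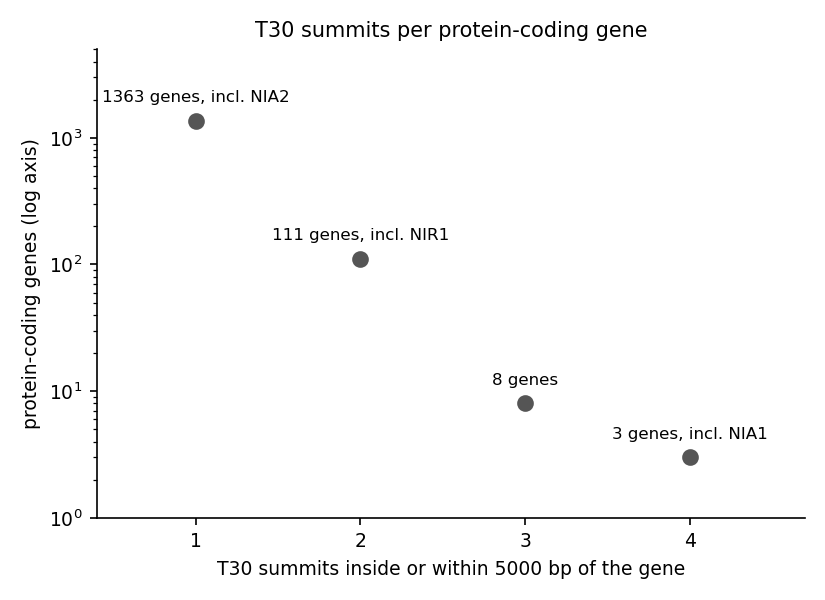
Number of protein-coding genes (log axis) by how many T30 summits lay inside the gene or within 5000 bp of it. Genes with 0 summits are not drawn. NIA1 is 1 of 3 genes with 4 summits, NIR1 1 of 111 with 2, and NIA2 1 of 1363 with 1.

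NIR1 was the one reductase gene with a summit inside it. This peak, on chromosome 2 from 6810316 to 6810771, ranked 58th with a fold of 5.37 and a −log10 q of 213, and its summit was at 6810486. It was 456 bp wide and ran across the gene's end on the side of lower coordinates. When the gene table was moved by 250 bp, to allow for small differences between the assemblies, the summit fell just outside the gene in one direction, and the peak lay wholly inside it in the other. A second NIR1 peak, from 6808471 to 6808803, had a fold of 3.22 and ranked 210th. Its summit lay 1814 bp from the first, and the first had 1.66 times its fold.

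The second NIR1 peak fell between NIR1 and its neighbour AT2G15610, with both genes within 2000 bp. NIR1 was the nearer of them, but with the gene table moved up by 250 bp AT2G15610 was. For genes with a T30 summit inside or within 1000 bp, the background share was 1.91%, and NIR1 alone of the 3 genes met that narrower window. Within 2000 bp the share was 2.75%, and NIA1 and NIR1 met it. Ordered by their strongest peak, the genes ran from NIA2 through NIA1 to NIR1, and ordered by distance of that peak from the gene they ran the same way, from the farthest to the nearest. With 3 genes this order is a description only.

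**Figure D3:**
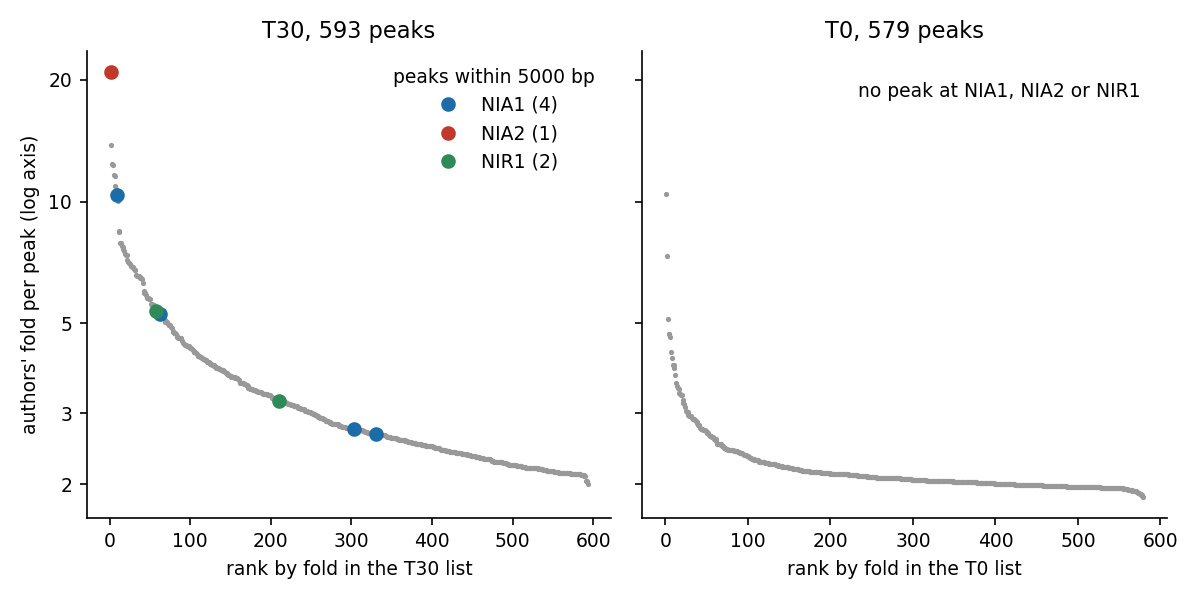
The authors' fold of every peak against its rank within its own list, with T30 on the left and T0 on the right (log axis for fold). Coloured points mark the 7 T30 peaks at NIA1, NIA2 and NIR1, which run from rank 1 to rank 331; the T0 list has no peak at these genes.

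As a group, the reductase peaks lay towards the top of the T30 list but did not all lie there. Of the 7 peaks, 4 had a fold of at least 5, against 71 of all 593 peaks (12.0%). This mark lies just below the folds of 5.27 at NIA1 and 5.37 at NIR1. Set against the list's median fold, 5 of the 7 peaks lay above it. The 7 peaks come from only 3 genes, with 4 of them at NIA1. The weak NIA1 pair members, with folds of 2.74 and 2.67, lay just below the list's median of 2.75. By −log10 q, the first had 55.5, above the list's median of 47.2, and the second had 44.8, below it. All 7 peaks failed to overlap a T0 peak, against 80.8% of the whole T30 list, so this is close to what the list shows in general. Of the 331 T30 peaks with a fold of at least 2.67, the lowest at the reductase genes, 41 overlapped a T0 peak.

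Every T30 peak has at least the lowest −log10 q kept in either list, so this holds for the reductase peaks by construction. That lowest value was 16.1 at T0 and 20.4 at T30, and the 7 reductase peaks had values from 44.8 to 1998 at T30. The T0 list had lower values in general, with a median of 19.7 against 47.2 at T30. Only 56 of its 579 peaks reached 44.8. The lists were called separately and read depth is unknown, so these values do not show that such peaks would have been kept at T0. The nearest T0 peak to the strongest summit was 338 kb away at NIA1, 16.3 kb away at NIA2 and 227 kb away at NIR1. No input peak of either time lay at any of the 3 genes, and 0.142% of all protein-coding genes had one. Both IP lists are tagged noINPUT, and no source used here states whether input entered the calling, and so the fold, or was used to remove peaks. The nearest T0 input peak was 427 kb from the NIA2 summit and farther from the others, and the T30 input list had 0 peaks on chromosome 1.

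The deposited peak names carry numbers that follow position throughout each list and run past the number of peaks kept, to 23451 at T30 and to 32712 at T0. If they number the authors' calls before filtering, which no source used here states, the unlisted numbers stand for calls that were not kept. The 4 NIA1 peaks carry the consecutive numbers 5354 to 5357, and the 2 NIR1 peaks the numbers 6962 and 6963. Peaks this close together would often be numbered in a row, so nothing is read from this.

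Numbers are unlisted around NIA2 and NIR1 at both times, and around NIA1 at T0. In the lists as a whole, the kept peaks amount to 2.53% of the highest number at T30 and 1.77% at T0. Unlisted numbers are therefore the rule throughout both lists, and the counts below are not particular to these genes. Between the kept neighbours of the strong NIA2 peak, 80.5 kb apart, 25 numbers are not listed at T30, and between the kept T0 peaks on either side of it, 93.3 kb apart, 33 are not listed. Around the strongest NIR1 summit 35 numbers are not listed over 175 kb at T30, and 164 over 547 kb at T0. Around that of NIA1 0 are not listed over 8.25 kb at T30, and 286 over 1045 kb at T0. Whether any unlisted T0 number stood for a call at a reductase gene was not analysed here. The T0 list therefore says that no peak at these genes was kept by the authors, and does not show that NLP2 was absent.

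A further 26 genes were listed for nitrate uptake, cofactors, reductant, ammonium assimilation and control of nitrate reductase, with sulfite reductase for comparison. Of these, 14 (53.8%) had a T30 summit in the 5000 bp window and 2 had a T0 summit, beside the 5.41% and 3.76% of all genes. The 26 genes were chosen with earlier results of these data known, so these shares are a description only. None of the 26 had as many T30 summits as NIA1 or a fold as high as NIA2. The largest number was 3, at the neighbouring high-affinity nitrate transporter genes NRT2.1 and NRT2.2, which share these summits. Among the genes with a T30 summit, the highest fold per gene had a median of 4.54.

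Among cofactor genes, 1 of 2 for sirohaem and 2 of 6 for molybdenum cofactor had a T30 summit, and the difference between these shares was not tested. For sirohaem, the cofactor of nitrite reductase, UPM1 (AT5G40850), which makes its precursor, had a summit inside the gene with a fold of 11.6 at T30, above that at NIR1 itself. SIRB, which inserts the iron to form sirohaem, had none. For molybdenum cofactor, which nitrate reductase needs, CNX6 had a fold of 2.42 and CNX2 one of 2.32, both below the median of the T30 list. CNX1, CNX3, CNX5 and CNX7 had none. The molybdate transporter gene MOT2 had a T30 summit with a fold of 3.39 inside it, in a stretch that 2 protein-coding genes of the table share. Its T0 summit, with a fold of 1.97, lay 2000 to 5000 bp away and was nearest to AT1G80330. MOT1 had a T0 summit inside it, with a fold of 1.99, and no T30 summit. MOT1 and MOT2 were the only genes of the 26 with a T0 summit.

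The 3 reductant genes listed, which leave out other ferredoxin and ferredoxin-NADP reductase genes, each had a T30 summit in the window, beside 5.41% of all genes. The root ferredoxin-NADP reductase genes RFNR1 and RFNR2 had summits inside them with folds of 6.47 and 5.58. The ferredoxin gene FD3 (AT2G27510) had a peak of fold 12.3 in its window, but that summit was nearest to its neighbour AT2G27520. The FD3 peak that had FD3 as its nearest gene had a fold of 3.34. Sulfite reductase (SIR), which like nitrite reductase uses sirohaem and ferredoxin, had a T30 summit within 1000 bp and a fold of 3.67.

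Before and after the reductase steps, the pattern was mixed. Of 6 nitrate uptake and storage genes, 4 had a T30 summit: NRT3.1, the partner of the NRT2 transporters, with a fold of 12.4, NRT2.1 with 5.40, NRT2.2, and the nitrate transporter and sensor gene NRT1.1 with 2.60. The NRT2.1 peak also fell in the window of NRT2.2, 2000 to 5000 bp from it, and the highest fold among summits nearest to NRT2.2 was 2.78. NRT1.2 and the vacuolar exchanger gene CLCa had none. Of 5 ammonium assimilation genes, the plastid glutamine synthetase gene GLN2 had a T30 fold of 3.35 from the summit nearest to it and one of 3.68 nearer to its neighbour AT5G35620 and GLU1, which encodes a glutamate synthase that uses ferredoxin, had 2.98 from a summit nearer to its neighbour AT5G04130. GLN1.1, GLU2 and GLT1 had none. SIZ1, a SUMO ligase that acts on nitrate reductase, had none either. These counts describe lists chosen with earlier results of the same data known.

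**Figure D4:**
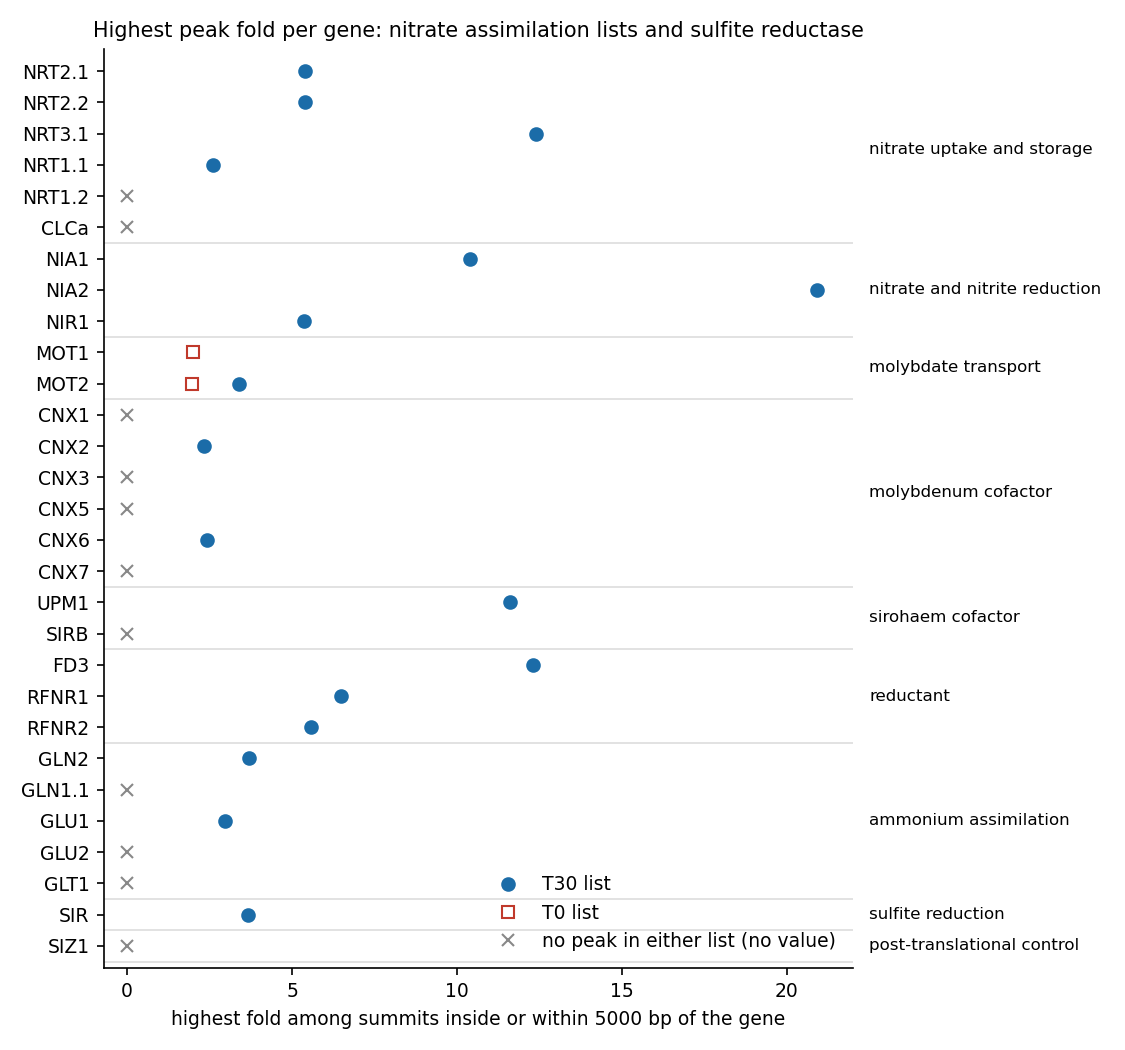
Highest fold among summits inside or within 5000 bp of each listed gene of nitrate assimilation and of sulfite reductase, grouped by step, with filled circles for the T30 list and open squares for the T0 list. Crosses at 0 mark genes with no peak in either list and carry no value. NIA2 at 20.9 has the highest T30 fold, followed by NRT3.1 at 12.4, FD3 at 12.3 (nearest to a neighbour, as are the values drawn for NRT2.2, GLN2 and GLU1 and the T0 value of MOT2), UPM1 at 11.6 and NIA1 at 10.4; MOT1 and MOT2 alone have a T0 value.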

How the data were processed

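Bowtie2 2.3.4.1, SAMtools 1.7, MACS2 2.1.1 and the TAIR10 build are named in the submitters' processing notes. The 4 deposited files are peak lists: for either time 1 of IP peaks and 1 of input peaks. Both IP lists are named as pooled replicates filtered by reproducibility (IDR). Their names also hold the tags noCM and noINPUT, which are not spelled out. The fold (a ratio), the −log10 p, the −log10 q and the score of each peak are the authors' deposited values, and so are the summit offsets.

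Here, Python 3.11.15 and pandas 2.3.3 were used to measure each summit's distance to genes in a RefSeq table of TAIR10.1, assumed to share nuclear coordinates with TAIR10; its coordinates are not printed. All 26 pathway genes and the 3 reductase genes matched by locus code. Peaks overlapped when they shared 1 bp. Distances and counts were checked on simulated data. Positions are 1-based. The genes, lists and windows were chosen with earlier results of these data known. Named genes were the 3 reductase genes, the nearest neighbours of their peaks and the pathway lists. Planned motif and protein comparisons were not analysed here. No test was run, since each list is a single pooled value per time.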

Additional observations from a re-analysis of the deposited data

How the results depend on the processing

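No paired analysis was possible because the IP list of each time is pooled over its 2 libraries and gives no value per replicate. Leaving out a replicate was not possible for the same reason. The 3 genes had 0 T0 peaks under all 9 alternatives. Their T30 peaks numbered 7 and fell to 4 with a 2000 bp window and 1 with a 1000 bp window, where 1 gene (NIR1) had any; fewer summits lie in a smaller window by construction. The other 7 alternatives gave 5 to 9 peaks and kept a peak at all 3 genes. The share of all genes with a T30 peak, 5.41%, was 2.75%, 1.91% and 9.40% with windows of 2000, 1000 and 10000 bp, 3.00% with peaks at or above the median fold and 1.71% with the nearest gene only. The T0 share, 3.76%, was 1.97%, 1.35% and 6.65% with the same windows, 4.05% with any base of the peak, 1.16% at a shared q cut-off, 1.52% at or above the median fold and 1.26% with the nearest gene only. NIA1 kept 2 of its 4 T30 peaks at or above the median fold, with the nearest gene only and with a 2000 bp window. In a setting chosen after seeing the data, moving the gene table by 250 bp left 4 and 5 of the 7 peaks nearest to a reductase gene, against 5 with the table in place. Read depth is unknown, so its limit on the T0 list cannot be given.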
